A study of Mus musculus with 54 samples.

Results

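Primary mouse microglia given alpha-synuclein (aSyn) were compared with microglia not given it. The 2 populations had first shared a culture for 60 min. The comparison rests on the libraries whose titles carry this time: 3 from donor cells, of experiments 1, 3 and 4, and 4 from acceptor cells, of experiments 1, 2, 3 and 4, together 7 of the 54 libraries of the series. Donors and acceptors of an experiment were paired by the replicate number in their titles, which gives 3 pairs, and experiment 2 had no donor library at this time. The labels give passage 3 for experiment 1, passage 1 for experiment 2 and passage 2 for experiments 3 and 4. Passage was the same within an experiment, so a term for the experiment also carries passage. All cells came from neonatal C57BL/6 mice, were grown from brains pooled by 2 per flask in medium with L929 cell supernatant, and were shaken off the astrocytes beneath them. Donors, seeded in petri dishes, were given 1 µM aSyn carrying the dye Atto-488 for 14 h. Acceptors, seeded in flasks at a lower cell number, were stained with CellTracer Violet for 15 min and were given no aSyn. Whether acceptors held aSyn from donors after the co-culture was not tested here. After 60 min together the populations were sorted apart by flow cytometry. The culture vessel, the dye and the aSyn differed between donors and acceptors in every experiment and cannot be told apart. The other groups used here are donors and acceptors at 0, 15, 30, 150 and 300 min, cells given aSyn but not co-cultured, and untreated cells.

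Microglia are the resident macrophages of the brain. aSyn is the neuronal protein that accumulates in Lewy bodies in Parkinson disease, and microglia clear it through scavenger and Toll-like receptors, degrade it in lysosomes and can hand it to neighbouring cells through thin membrane bridges called tunnelling nanotubes. Uptake is known to engage NF-kB, the transcription factor behind most inflammatory cytokines, and NRF2, the factor behind antioxidant genes.

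The 7 libraries held 11571623 to 13926157 counts each and 13421 to 14231 detected genes. Of 12 microglia markers, all tested, edgeR called none. At an unadjusted p under 0.05, 4 were higher and 3 lower, against 22.9% of all genes tested in either direction. DESeq2 called 1 of these markers, and edgeR without experiment 4 called 2 of the 12 markers lower. Their summed level was 16026 and 12914 CPM (counts scaled to library size) in the donors of experiments 1 and 3 and 3931 CPM in the donors of experiment 4, against 12322, 14266, 14728 and 7400 CPM in the acceptors of experiments 1 to 4. Astrocyte markers summed to 13.7, 31.6 and 23.3 CPM in donors and to between 8.99 and 48.8 CPM in acceptors, with none of 11 called. Gfap, the defining astrocyte filament, was at 0 in 3 of the 7 libraries. Among markers of the oligodendrocyte lineage, neurons, vessels, fibroblasts, border macrophages and lymphocytes only Pf4, a chemokine of border macrophages, was called, at a log2 difference of 0.88 (SE 0.22, adjusted p 0.014). Their part in the results below was not tested. Experiment 4 stood apart: Rn45s, a precursor of ribosomal RNA, made up 17.3% of counts in its donors and 22.1% in its acceptors, against 4.64 to 8.33% in the other libraries, and the facility numbers in its titles lie apart from those of experiments 1 to 3. Values without experiment 4 are given for some of the results that it changes. In bulk RNA, fewer cells that express a gene and less of its RNA per cell cannot be told apart.

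Donors and acceptors differed in 882 of 13169 tested genes, 6.7% of them, at an adjusted p under 0.05 (edgeR with the experiment as a block). Of these, 477 (3.62% of genes tested) were higher in donors and 405 (3.08%) lower. The median log2 difference was 0.84 among the higher genes, -0.69 among the lower and -0.02 over all genes tested. At an unadjusted p under 0.05 there were 3014 genes, 22.9%. More than 2-fold differences numbered 198 upward and 120 downward. All 3 pairs had the same direction for 852 of the 882 genes, against 36.8% of all genes tested, and for 452 the 3 donor values did not overlap the 4 acceptor values, against 7.8% of all genes tested; both shares follow in part from the call itself. Without the block 55 genes were called (0.418%), 44 higher and 11 lower, all among the 882. The main fit took its spread from all 14 groups of the series. Fitted on the 7 libraries alone, 3 genes were called: Adgre5, Slc13a3 and Klf2. At the threshold, the colony-stimulating factor gene Csf3 was the last gene called (adjusted p 0.0499) and the kinase gene Vrk3 the first that was not (0.0502).

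Adgre5 showed the clearest separation. It encodes the leukocyte adhesion receptor CD97, a G protein-coupled receptor. Its level was 94.1, 91.5 and 85.5 CPM in the donors of experiments 1, 3 and 4 and 4.81, 4.46, 8.64 and 5.0 CPM in the acceptors of experiments 1 to 4. The lowest donor was thus about an order of magnitude above the highest acceptor. The log2 difference was 3.95 (SE 0.19, adjusted p 3.9e-19 with the block and 5.58e-13 without). Without co-culture, cells that had received aSyn had 81.1 ± 8.25 CPM (SD, n = 4), and untreated cells at 3.04 ± 0.621 CPM (SD, n = 4). Adgre5 lies on chromosome 8 (mm10, chr8:83723251-83741326, minus strand) and overlaps Ddx39 on the other strand. Whether counting used strand is not given in the sources used here, so reads of the 2 genes may not be separated. Ddx39 was at 42.2, 58.3 and 96.6 CPM in donors and 37.2 to 49.9 CPM in acceptors, a log2 difference of 0.56 (adjusted p 0.0435).

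Slc13a3, which encodes a sodium-dependent dicarboxylate transporter, was at 31.6, 72.5 and 40.4 CPM in donors and at 3.26, 1.62, 8.64 and 3.05 CPM in acceptors. The groups did not overlap, and the log2 difference was 3.50 (SE 0.27, adjusted p 6.14e-12). The gene lies at chr2:165405028-165473230 on the minus strand. Klf2, a zinc-finger transcription factor that restrains activation in myeloid cells and endothelium, was at 129, 166 and 151 CPM in donors and at 25.4 to 35.4 CPM in the 4 acceptors, a log2 difference of 2.29 (SE 0.36, adjusted p 6.59e-05). Itgal, the alpha chain of the leukocyte integrin LFA-1, was at 94.6, 150 and 222 CPM in donors and 11.6 to 37.1 CPM in acceptors (2.79, SE 0.44, adjusted p 6.87e-05). These genes, with Acp5, Nr1h3 and Itga9 below, were among the 32 of the 86 called named genes that were called whichever experiment was left out, and among the 12 called without the block.

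**Figure D1:**
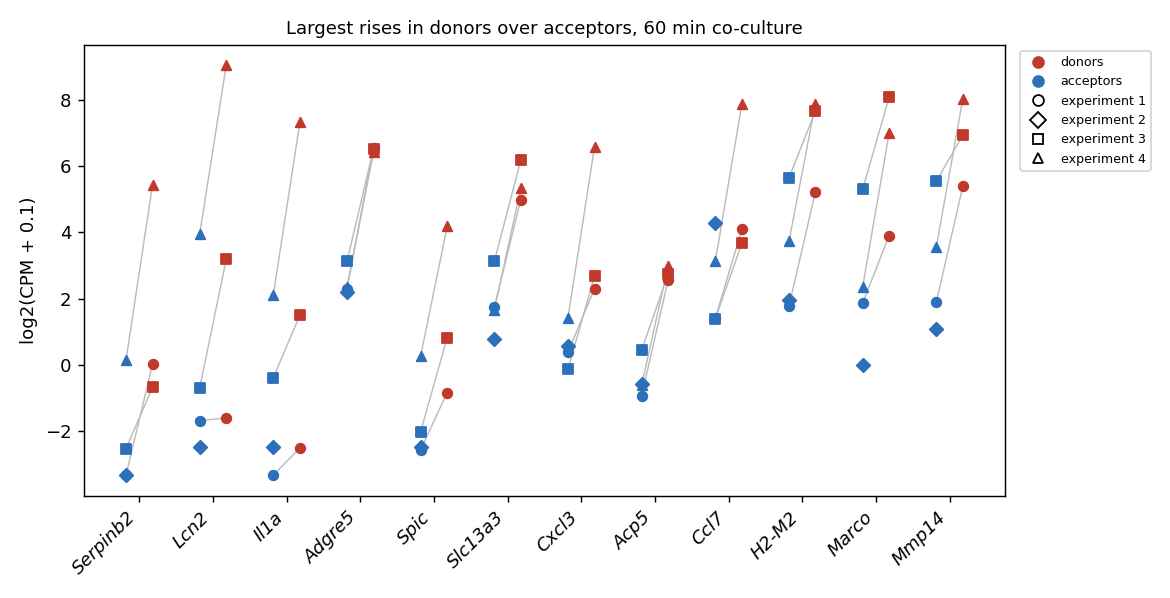
Level of the 12 genes with the largest rises in donors at 60 min, as log2(CPM + 0.1), in each of the 7 libraries. Red symbols are donors, blue symbols acceptors, the symbol shape gives the experiment and grey lines join donors and acceptors of one experiment. Adgre5, Slc13a3 and Acp5 separate the groups in every experiment, whereas Lcn2, Il1a and Serpinb2 reach 527, 159 and 43.3 CPM in the donors of experiment 4 and lie at or below 8.98 CPM in the donors of experiments 1 and 3.

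The other large rises fell into 2 kinds. Acp5, the tartrate-resistant acid phosphatase of osteoclasts and activated macrophages, was at 5.84, 6.60 and 7.84 CPM in donors and 0.425 to 1.27 CPM in acceptors (log2 difference 3.30, SE 0.42, adjusted p 3.27e-06). Marco, a scavenger receptor for particles and bacteria, was at 14.8, 268.8 and 127 CPM in donors against 3.54, 39.3 and 5.0 CPM in the acceptors of the same experiments (3.13, SE 0.49, adjusted p 6.87e-05). Mmp14, a membrane-bound matrix metalloproteinase, was at 41.7, 122 and 259.3 CPM against 3.61, 46.4 and 11.7 CPM in the same pairs (2.95, SE 0.55, adjusted p 0.000708). For Marco and Mmp14, as for the class Ib histocompatibility gene H2-M2 (3.16), each donor library exceeded its own pair but the groups overlapped, because the acceptors of experiment 3 were above the donors of experiment 1. Lcn2, the iron-siderophore-binding lipocalin of the innate response, was at 0.230, 8.98 and 527 CPM in donors and 0.212, 0.0811, 0.521 and 15.4 CPM in acceptors. Il1a, the alarmin interleukin-1 alpha, was at 0.0768, 2.73 and 159 CPM in donors and at most 4.26 CPM in acceptors. The highest values of both groups were those of experiment 4, and Lcn2 (4.61, SE 0.61, adjusted p 7.37e-06), Il1a (4.39, SE 0.82, adjusted p 0.000701), Serpinb2 and the macrophage factor gene Spic were not called without experiment 4.

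**Figure D2:**
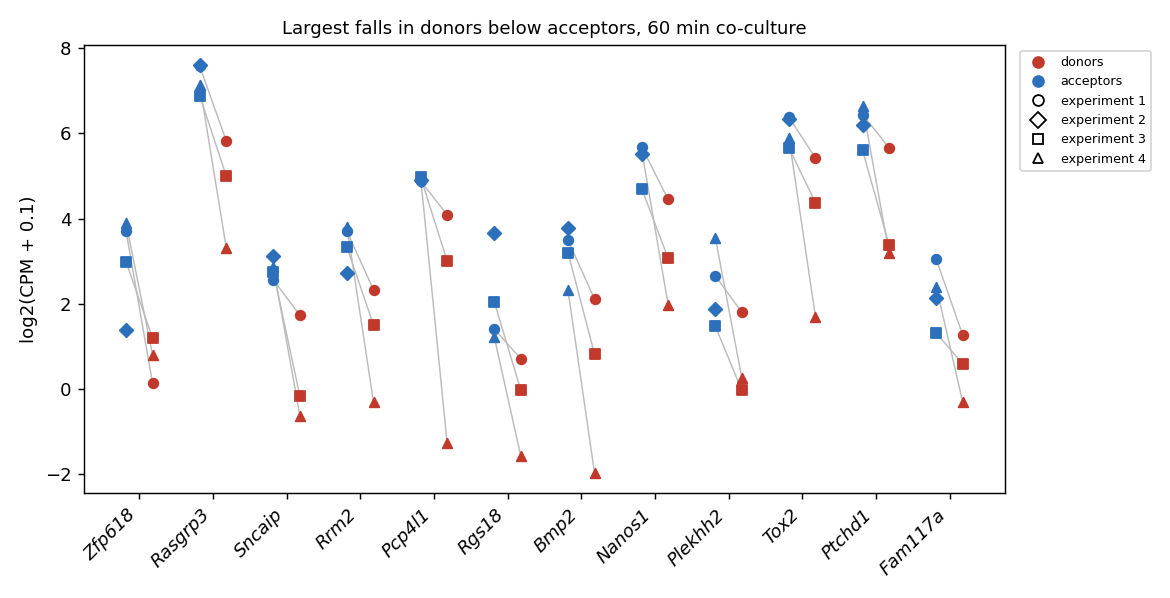
Level of the 12 genes with the largest falls in donors at 60 min, as log2(CPM + 0.1), in each of the 7 libraries, with symbols as in the plot of the largest rises. Rasgrp3 and Sncaip separate the groups, and the donors of experiment 4 reach 0.157 CPM for Bmp2 and 0.313 CPM for Pcp4l1.

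Genes that were lower in donors had smaller differences. Zfp618, a zinc-finger protein gene, was at 0.998, 2.20 and 1.65 CPM in donors and 13, 2.51, 7.82 and 14.8 CPM in acceptors (log2 difference -3.04, SE 0.49, adjusted p 9.7e-05). Rasgrp3, which encodes an activator of Ras and Rap1, was at 56.7, 31.9 and 9.87 CPM in donors and 190, 194, 118 and 141 CPM in acceptors (-2.49, SE 0.47, adjusted p 0.000722). Both were called whichever experiment was left out, though neither without the block, and in both the highest donor lay below the lowest acceptor. Sncaip encodes synphilin-1, a protein that binds aSyn and is found in Lewy bodies. It was at 3.23, 0.792 and 0.549 CPM in donors and 5.8, 8.6, 6.63 and 7.12 CPM in acceptors (-2.46, SE 0.58, adjusted p 0.00751), and it was not called without experiment 3. Tox2, a nuclear HMG-box factor (-2.01), and Nanos1, an RNA-binding translational repressor (-2.20), were at 42.7 and 21.7 CPM at most in donors and at 50.4 and 26.0 CPM at least in acceptors. Bmp2, a secreted ligand of the TGF-beta family, was at 4.22, 1.67 and 0.157 CPM in donors and 4.90 to 13.6 CPM in acceptors (-2.22, SE 0.58, adjusted p 0.0163), and it lost its call without experiment 1, 2 or 3.

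Among inflammatory genes that NF-kB drives, mostly cytokines and chemokines with some enzymes and adhesion molecules, 12 of 27 tested were higher in donors and none lower, against 3.62% and 3.08% of all genes tested; a further 8 had an unadjusted p under 0.05. The 12 were the chemokine genes Ccl2, Ccl7, Cxcl3 and Cxcl10, the cytokine and growth factor genes Il1a, Il6, Csf1 and Csf3, and Lcn2, Nos2, Saa3 and Vcam1. The median log2 difference of the list was 1.57, but it was 0.40 and 0.60 in the pairs of experiments 1 and 3 and 2.75 in that of experiment 4. Without experiment 4, 4 of 23 were called and the median was 0.88, and without the block none was called. Cxcl3, which attracts neutrophils, was at 4.84, 6.34 and 94.9 CPM in donors and 0.819 to 2.59 CPM in acceptors (3.38, SE 0.64, adjusted p 0.000835), the one member of the list whose groups did not overlap. Csf1, the survival factor of microglia, was at 9.06, 8.98 and 5.56 CPM in donors. The acceptors of the same experiments were at 3.04, 2.75 and 2.31 CPM (1.58, SE 0.28, adjusted p 0.000415), so its difference did not rest on experiment 4. With the acceptors of experiment 2 included, the Csf1 groups overlapped. Without the block its adjusted p in edgeR was 0.742. Il6 was at 0 in the donors of experiments 1 and 3 and at 35.5 CPM in those of experiment 4, against 1.76 CPM in their pair and 0 in the other acceptors, so its call (adjusted p 0.00166) rests on that pair. Tnf, the tumour necrosis factor gene, was at 24.3, 35.6 and 70.4 CPM in donors and 20.1 to 53.0 CPM in acceptors (0.10, SE 0.35, adjusted p 0.907). The microglia marker sum was 3931 CPM in the donor library of that pair, the lowest of the 7.

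Among tested genes with a promoter sequence (RefSeq, GRCm38.p6, 250 bases before to 50 after the gene's start), 30.1% of 10420 held the kB motif. The motif was GGGA and CC separated by any 4 bases, on either strand. In the whole list of NF-kB targets, called or not, 8 of 17 with a promoter held it. Of the 12 called genes, 7 had a promoter sequence, and 4 of these held the motif. A stretch of 3 of these promoters is shown as examples from called chemokine and cytokine genes; capitals mark the motif, with overlapping matches joined. The Cxcl3 stretch is chr5:90785989-90786078 on the plus strand, the Cxcl10 stretch chr5:92348943-92349032 on the minus strand and the Il6 stretch chr5:30013031-30013113 on the plus strand. A match is a description of the letters.
Cxcl3: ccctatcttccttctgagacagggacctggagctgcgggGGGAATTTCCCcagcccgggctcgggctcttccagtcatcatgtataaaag
Cxcl10: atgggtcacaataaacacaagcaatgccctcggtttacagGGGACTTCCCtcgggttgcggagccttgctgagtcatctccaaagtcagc
Il6: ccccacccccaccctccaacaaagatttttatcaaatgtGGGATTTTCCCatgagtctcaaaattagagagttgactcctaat

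Components and inhibitors of the NF-kB pathway were listed apart from its targets. Of 18 tested, 3 were higher (3.62% among all genes tested) and none lower, with a median of 0.36: Ikbke, a kinase of the interferon and NF-kB pathways, Zc3h12a, an RNase that degrades cytokine transcripts, and Tnfaip2, a protein named for its induction by tumour necrosis factor and known for its part in forming tunnelling nanotubes. Ikbke was at 58.0, 62.8 and 46.9 CPM in donors and 10.3 to 38.8 CPM in acceptors (1.46, SE 0.24, adjusted p 0.000152). Nfkbia, an early feedback inhibitor of the pathway, was at 325, 507 and 1040 CPM in donors and 334 to 714 CPM in acceptors (0.18, SE 0.22, adjusted p 0.684). The count was 1 without experiment 1, 2 or 3, 5 without experiment 4 and 0 without the block. Of 30 immediate early genes, which respond within minutes to stimulation, 4 were higher, against 3.62% of all genes tested, and none lower, with a median of 0.08. They were Klf2, Klf4, the stress-inducible Gadd45b and the AP-1 subunit gene Fosl1, which had 1.31, 1.85 and 5.17 CPM in donors and no count in any acceptor library. Against a floor of 3 counts per acceptor library, Fosl1 was at least 11.6-fold higher, but it lost its call without experiment 3 or 4 and without the block. Without experiment 1 or 2 the count was 2.

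Of 32 interferon-stimulated genes 30 had a log2 difference above 0, and 3 were called higher, against 3.62% of all genes tested: Rsad2, Ifit1 and Oasl1, all antiviral effectors. At an unadjusted p under 0.05 there were 25 higher and none lower, against 1445 higher and 1569 lower among the 13169 genes tested. The median log2 difference was 1.02, and 0.71, 0.31 and 2.60 in the pairs of experiments 1, 3 and 4. Rsad2 was at 724, 509 and 983 CPM in donors and 224, 666, 301 and 67.7 CPM in acceptors (1.80, SE 0.55, adjusted p 0.0405). The acceptors of experiment 2, which had no donor library, were above the donors of experiment 3, so the groups overlapped. The number called was 0 without experiment 1 or 3, 0 without the block, 10 without experiment 2 and 1 without experiment 4. In these fits the median stayed between 0.53 and 1.37.

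**Figure D3:**
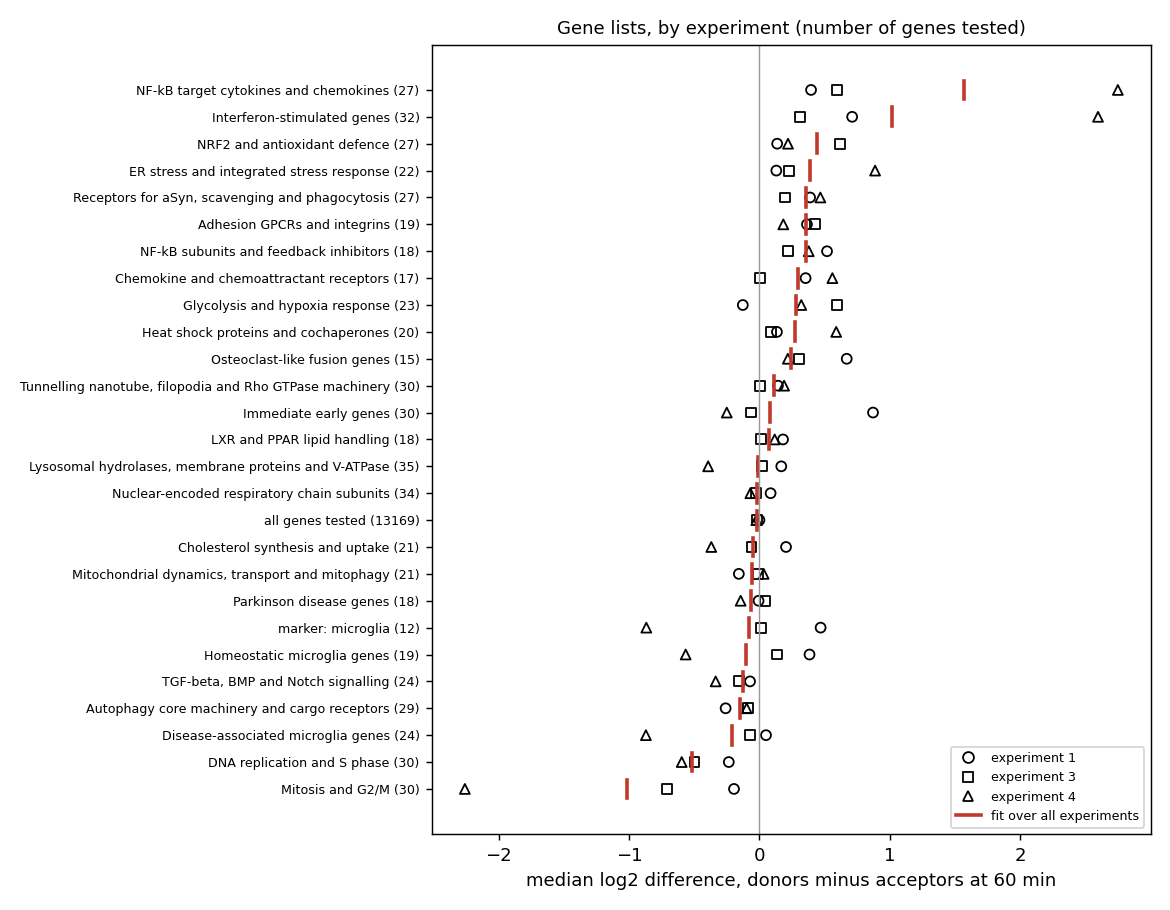
Median log2 difference between donors and acceptors at 60 min for each gene list (number of tested genes in brackets) and for all genes tested. Red bars are medians of the fitted differences and open symbols medians of the differences within the pairs of experiments 1, 3 and 4; the NF-kB target, interferon and mitosis lists lie farthest from 0, at 1.57, 1.02 and -1.02, with experiment 4 the farthest of the 3 pairs in each.

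Receptors that bind aSyn or take up particles were higher in donors in 7 of 27 tested, against 3.62% of all genes tested, and lower in none, with a median of 0.36. Tlr1 and Tlr6 encode the partners of Toll-like receptor 2 on the cell surface, and Myd88 the adaptor through which they signal. Tlr6 was at 4.61, 7.74 and 10.8 CPM in donors and 2.90 to 3.15 CPM in acceptors (1.40, SE 0.30, adjusted p 0.00274), with no overlap. Tlr1 was at 37.0, 20.4 and 88.4 CPM in donors against 8.35, 11.8 and 8.70 CPM in their pairs (1.86, SE 0.39, adjusted p 0.00219). Olr1, the receptor for oxidised low-density lipoprotein, had no count in any acceptor and 0.705 to 1.14 CPM in donors, at least 3.97-fold higher against the same floor. Olr1 lost its call without experiment 1 or 3 and without the block. Marco, the inhibitory Fc receptor gene Fcgr2b (1.43) and the inflammasome protease gene Casp1 (0.48) were the other called members. The count was 2 without experiment 1, 3 without experiment 3 and 0 without the block.

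Receptors for chemoattractants guide migrating cells, and integrins and adhesion receptors hold them to matrix and to each other. Of 17 chemoattractant receptors, 4 were higher, against 3.62% of all genes tested, and none lower: Ccr1, the formyl peptide receptor genes Fpr1 and Fpr2, and Cmklr1, the chemerin receptor gene. Cmklr1 was at 109, 123 and 103 CPM in donors and 18.5 to 52.2 CPM in acceptors (1.89, SE 0.33, adjusted p 0.000249). Ccr1 was at 8.76, 8.36 and 24.3 CPM in donors and 1.13 to 3.70 CPM in acceptors (2.11, SE 0.40, adjusted p 0.000723). In both, every donor was above every acceptor. Of 19 adhesion receptors and integrins tested, 7 were higher and 1 lower, against 3.62% and 3.08% of all genes tested. Beside Adgre5 and Itgal the higher ones were Adgre1, which encodes the macrophage antigen F4/80, Itga4 and Itga5, the alpha chains of 2 fibronectin receptors, Itga9, and Cd44, the hyaluronan receptor. Itga9 was at 84.9, 62.8 and 38.6 CPM in donors and 16.8 to 23.9 CPM in acceptors (1.63, SE 0.28, adjusted p 0.000249), and Cd44 was at 482, 467 and 416 CPM against 216 to 308 CPM (0.80, SE 0.16, adjusted p 0.00112). The lower one was Itgb1, the shared beta-1 chain, at 251.9, 258.6 and 216 CPM in donors and 267.3 to 317 CPM in acceptors (-0.35, SE 0.08, adjusted p 0.00554). The groups did not overlap for 10 of the 19 genes, against 7.8% of all genes tested, and leaving out 1 experiment gave 5 to 8 higher and at most 1 lower.

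A list of genes for osteoclast-like differentiation and cell fusion had 4 of 15 higher, against 3.62% of all genes tested, and none lower. Beside Acp5 and Cd44 these were Mmp9, a secreted gelatinase gene, and Ocstamp, a fusion-related membrane protein gene. Ocstamp was at 4.38, 0.440 and 2.98 CPM in donors and at most 0.149 CPM in acceptors, at least 10.9-fold higher against the floor of 3 counts (adjusted p 0.00153), and it was not called without experiment 1. Mmp9 was at 68.1, 235.8 and 30.6 CPM in donors and 10.3, 111 and 8.6 CPM in their pairs (1.92, SE 0.38, adjusted p 0.00115), so the acceptors of experiment 3 exceeded 2 of the donor libraries.

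Machinery of tunnelling nanotubes and filopodia had called members in both directions, with 6 of 30 higher and 3 lower, against 3.62% and 3.08% of all genes tested, and a median of 0.11. The higher genes act on actin at the membrane. Baiap2, which encodes the membrane-bending protein IRSp53, was at 42.5, 50.2 and 61.9 CPM in donors and 21.2 to 29.2 CPM in acceptors (1.00, SE 0.17, adjusted p 0.000249, and 0.00962 without the block). Ezr, which encodes ezrin, a linker of actin to the membrane, was at 42.3, 54.2 and 65.0 CPM in donors and 16.7 to 24.1 CPM in acceptors (1.21, SE 0.23, adjusted p 0.000913). Every donor was above every acceptor for both. Vasp, Rac2, Tnfaip2 and Fscn1, the gene of the filopodial actin-bundling protein fascin, were also higher. Fscn1 was at 35.3, 27.2 and 28 CPM in donors and 3.82, 2.76, 31.7 and 4.26 CPM in acceptors (1.78, SE 0.52, adjusted p 0.0325), with the acceptors of experiment 3 at the level of the donors. The lower genes were Exoc2 (-0.49) and Exoc4 (-0.51), subunits of the exocyst that tethers vesicles to the membrane, and the formin gene Fmnl1 (-0.73). The counts were 2 and 1 without experiment 1, 3 and 0 without experiment 2, 3 and 1 without experiment 3, and 6 and 0 without experiment 4. Of 21 genes for mitochondrial dynamics and transport edgeR called none and DESeq2 called none. At an unadjusted p under 0.05, 2 were lower and none higher, against 22.9% of all genes tested in either direction.

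Antioxidant genes under NRF2 were higher in 8 of 27 tested, against 3.62% of all genes tested, and lower in none, with a median of 0.45. Slc7a11, the cystine importer gene, was at 28.2, 173 and 296 CPM in donors and 8.56, 37.8 and 29.7 CPM in their pairs (2.51, SE 0.38, adjusted p 4.99e-05). Nqo1, a quinone reductase gene, was at 4.45, 9.06 and 23.0 CPM against 1.84, 1.41 and 4.90 CPM in the same pairs (2.03, SE 0.41, adjusted p 0.00166). Hmox1, the heme oxygenase gene, was at 188, 338 and 1626 CPM in donors and 99.7, 155 and 1101 CPM in their pairs (0.82, SE 0.23, adjusted p 0.0235). In these 3 genes each donor exceeded its own pair, while the groups overlapped, as they did for all 27 members. The other called members were Gsr, Mafg, Prdx1, Txn1 and the autophagy receptor gene Sqstm1. The count of called members was 4 without experiment 2, 3 without experiment 3 and 0 without the block. Nfe2l2, which encodes NRF2 itself, was at 250.6 to 310 CPM in donors and 236.3 to 543 CPM in acceptors (-0.39, SE 0.19, adjusted p 0.215). The antioxidant response element TGACNNNGC was searched on both strands. Among genes with a promoter sequence, it was found in 2 of the 6 called, 9 of 23 in the whole list and 16.8% of all. It is shown for Prdx1, a peroxiredoxin gene (0.66), from chr4:116685426-116685514 on the plus strand, with the element in capitals and read on the opposite strand.
Prdx1: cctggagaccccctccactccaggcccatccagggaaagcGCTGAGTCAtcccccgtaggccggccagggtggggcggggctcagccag

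Chaperones and genes of stress in the endoplasmic reticulum (ER) were higher in 6 of 20 and 6 of 22 tested, against 3.62% of all genes tested, with none lower and medians of 0.27 and 0.38. Herpud1, a component of ER-associated degradation, was at 55.9, 43.7 and 49.0 CPM in donors and 14.2 to 34.5 CPM in acceptors (1.30, SE 0.20, adjusted p 4.99e-05). Hspa5, which encodes the ER chaperone BiP, was at 686, 916 and 1508 CPM in donors and 457 to 604 CPM in acceptors (0.98, SE 0.20, adjusted p 0.00154). Chac1, which degrades glutathione, was at 14.7, 8.36 and 11.0 CPM in donors and 2.04 to 6.87 CPM in acceptors (1.36, SE 0.30, adjusted p 0.00324). Every donor was above every acceptor for these 3, and all 3 were called whichever experiment was left out. None of the 3 was called by edgeR without the block (adjusted p 0.123, 0.221 and 0.227). Trib3, the transcription factor gene Xbp1, Pdia6 and Sdf2l1 were the other higher ER genes. The cytosolic chaperone gene Hspa1b was at 6.91, 21.9 and 39.3 CPM in donors and 2.78 to 6.65 CPM in acceptors (2.12, SE 0.52, adjusted p 0.00982), but its reads may be shared with the near-identical Hspa1a and it was not called without experiment 3 or 4. The chaperone count was 2 without experiment 2 and 1 without experiment 3 or 4, and the ER count was 3 without experiment 4. Both counts were 0 without the block. The ER stress response element, CCAAT and CCACG separated by any 9 bases, was searched on both strands. Among genes with a promoter sequence, it was in 3 of 21 in the whole ER list and in 0.163% of all. Of the 6 called ER genes with a promoter sequence, 1 held it. That gene was Pdia6, a protein disulfide isomerase gene (0.50), shown from chr12:17266451-17266549 on the plus strand with the element in capitals.
Pdia6: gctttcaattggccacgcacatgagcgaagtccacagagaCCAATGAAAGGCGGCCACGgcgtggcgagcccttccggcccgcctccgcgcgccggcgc

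Some genes of the cell cycle were lower in donors, and no called one was higher. Of 30 replication genes 5 were called lower, against 3.08% of all genes tested, and 27 had a log2 difference below 0. The 5 were Rrm2, the ribonucleotide reductase subunit gene, Cdc45, and the helicase subunit genes Mcm4, Mcm6 and Mcm7, and the median of the 30 was -0.52. Of 30 mitosis genes 28 had a log2 difference below 0 and 3 were called lower, Ccna2, Mad2l1 and Ttk, with a median of -1.02, and -0.20, -0.71 and -2.26 in the pairs of experiments 1, 3 and 4. At an unadjusted p under 0.05 there were 16 and 20 lower and none higher, against 1569 lower and 1445 higher among the 13169 genes tested. DESeq2 called 6 and 10, and without the block edgeR called none of either list. Ccna2, the cyclin of S phase and mitotic entry, was at 13.5, 6.69 and 5.33 CPM in donors and 24.1, 16.2 and 15.5 CPM in their pairs (-1.24, SE 0.29, adjusted p 0.0072). Rrm2 was at 4.92, 2.73 and 0.705 CPM in donors and 6.49 to 13.8 CPM in acceptors (-2.40, SE 0.68, adjusted p 0.0266), and it lost its call whichever experiment was left out. Mki67, the proliferation marker, was at 31.1, 8.54 and 4.23 CPM in donors against 34.4, 15.8 and 22.6 CPM in their pairs (-0.98, adjusted p 0.128). Leaving out experiments 1, 2, 3 and 4 in turn left 0, 1, 0 and 2 replication genes and 4, 2, 0 and 1 mitosis genes called, with both medians below 0 in every fit. Among genes with a promoter sequence, the E2F motif TTTGGCGC or TTTCCCGC was in 2 of the 4 called replication genes. It was in 9 of 25 over the whole replication list and in 3.46% of all. It is shown in capitals for Mcm6 (-0.34) from chr1:128359706-128359792 on the minus strand.
Mcm6: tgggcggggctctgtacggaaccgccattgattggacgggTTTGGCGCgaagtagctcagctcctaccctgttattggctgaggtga

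Lysosomes and autophagy degrade what microglia take up. Of 35 lysosomal genes 1 was higher and 1 lower (5.71%), near the 6.7% called among all genes tested. The higher one was the proton pump subunit gene Atp6v1h (0.41, SE 0.13, adjusted p 0.0446). The lower one was the membrane protein gene Lamp2, at 499 to 519 CPM in donors and 582 to 718 CPM in acceptors (-0.29, SE 0.09, adjusted p 0.0392). Both lost the call whichever experiment was left out. Of 29 autophagy genes 1 was higher and 3 lower, against 3.62% and 3.08% of all genes tested, with 22 of 29 on the lower side and a median of -0.15. Sqstm1, the cargo receptor p62, was at 1367, 2062 and 2606 CPM in donors and 973, 1512 and 1438 CPM in their pairs (0.70, SE 0.17, adjusted p 0.0101). Sqstm1 was called in every fit that left out an experiment, but not without the block. Gabarapl1, Atg12 and Ulk2, which act in forming the autophagosome, were lower in donors, with log2 differences of -0.59, -0.37 and -0.58. Atg12 and Ulk2 lost the call in every such fit, and Gabarapl1 in all but the fit without experiment 2.

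At an adjusted p under 0.05 in the main fit, the counts for state genes of microglia were near the 6.7% called among all genes tested. Of 19 homeostatic genes 1 was higher, the purinergic receptor gene P2ry13 (1.51, SE 0.38, adjusted p 0.0121), and of 24 disease-associated genes 2 were, Csf1 and Cd52 (0.64, SE 0.20, adjusted p 0.0423). At an unadjusted p under 0.05 there were 5 higher and 3 lower of the 19 homeostatic genes, against 22.9% of all genes tested in either direction. Of the 24 disease-associated genes, 5 were higher and 6 lower at that threshold. Without experiment 4, 2 homeostatic genes were higher and 1 lower (15.8%) at an adjusted p under 0.05. In the same fit 1 disease-associated gene was higher and 3 lower (16.7%). Trem2, the lipid-sensing receptor of disease-associated microglia, was at 483, 343 and 33.3 CPM in donors and 528 to 607 CPM in acceptors (-1.51, SE 0.62, adjusted p 0.129). Lpl, a lipoprotein lipase gene, was at 5553, 3567 and 1492 CPM in donors and 5941 to 7753 CPM in acceptors (-1.09, SE 0.36, adjusted p 0.0583). In both every donor was below every acceptor, with experiment 4 lowest, and the difference did not pass the test. Of 18 Parkinson disease genes edgeR called none and DESeq2 called 1. At an unadjusted p under 0.05, 1 was higher and 5 lower, against 22.9% of all genes tested in either direction. Of 34 respiratory chain subunit genes 1 was called (2.94%), Cox5a (0.30). Of 23 glycolysis genes 2 were (8.7%), Hk2 (0.72) and the glucose transporter gene Slc2a1 (0.76), against 6.7% of all genes tested. Of 18 genes for lipid handling 2 were higher (11.1%), against 3.62% of all genes tested: Nr1h3 and Fabp5, a fatty acid carrier gene (0.53). Nr1h3, which encodes the oxysterol receptor LXR alpha, was at 39.2, 21.9 and 37.5 CPM in donors and 2.87 to 11.6 CPM in acceptors (2.22, SE 0.38, adjusted p 0.000222). Of 24 genes of TGF-beta, BMP and Notch signalling Notch1 was higher (0.82) and Bmp2 lower (8.33% called, against 6.7% of all genes tested).

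The difference at 60 min was then set against the same difference at other times, which come from other libraries. The set of experiments was not the same at each time. At 0 min both populations came from experiments 1, 2 and 3, and at 300 min the acceptors came from experiments 1, 2 and 4. In the comparisons with 0 and 300 min, time and the set of experiments cannot be fully told apart. The number called was 564 at 0 min (4.28%), 1260 at 15 min (9.57%), 1416 at 30 min (10.8%), 684 at 150 min (5.19%) and 182 at 300 min (1.38%). Of the 882 genes called at 60 min, 272 were also called at 0 min, which is 30.84% of the 882 and 48.23% of the 564, and all 272 had the same direction. At 300 min 123 were shared, 13.95% of the 882 and 67.58% of the 182, again all in the same direction. The genes called at all 6 times numbered 77. Testing the difference itself, edgeR called no gene against 0 min (0%), with 525 genes at an unadjusted p under 0.05 (3.99% of genes tested); DESeq2 called 1, Cxcr4, named because it was the single call. The donor-acceptor difference of Cxcr4, the receptor of the chemokine CXCL12, was 1.52 at 0 min and -0.27 at 60 min (difference -1.80, SE 0.35, edgeR adjusted p 0.0789).

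Against 300 min 2 genes were called (0.0152%). Tcim, a small regulator of transcription, was at 27.9, 15.0 and 48.5 CPM in donors and 14.3, 6.49, 3.95 and 8.05 CPM in acceptors at 60 min. Its donor-acceptor difference was 1.88 at 60 min and -0.75 at 300 min, and the change between them was 2.62 (SE 0.49, adjusted p 0.0408). Klf2 differed by 2.29 at 60 min and by -0.32 at 300 min, a change of 2.61 (SE 0.51, adjusted p 0.0456). Klf2 in donors went from 149 ± 18.9 CPM (SD, n = 3) at 60 min to 21.3 ± 10.2 CPM (SD, n = 4) at 300 min, while acceptors were at 30.2 ± 4.24 CPM (SD, n = 4) and 25.1 ± 8.94 CPM (SD, n = 3). The Adgre5 difference was 3.95 at 60 min and 4.02 at 300 min (change -0.07, SE 0.28, adjusted p 0.9999), with donors at 41.5 ± 12.9 CPM (SD, n = 4) and acceptors at 2.29 ± 0.429 CPM (SD, n = 3) at 300 min. Neither was called without the block, with only these groups fitted, with untreated libraries kept apart, or without experiment 3 or 4. Tcim was the single call without experiment 1, Klf2 and Ezr were called without experiment 2, and the 2 genes called without experiment 4 were others, Bmp2 and St8sia4.

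**Figure D4:**
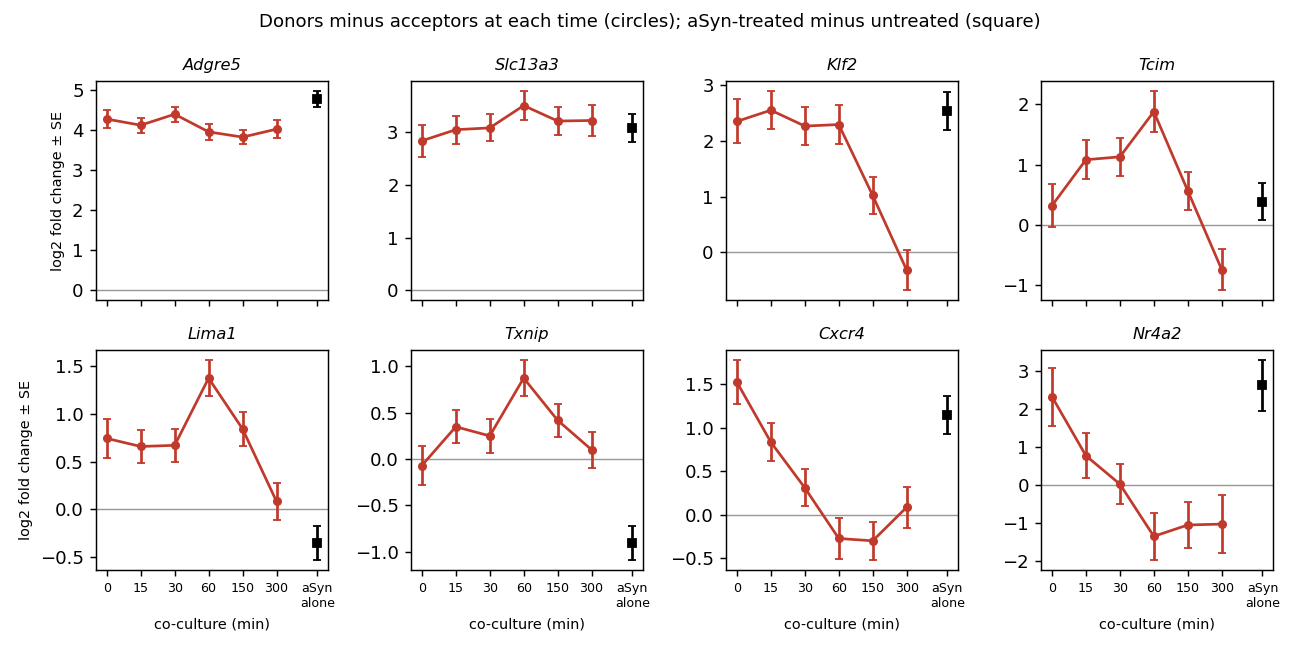
Log2 difference between donors and acceptors with its SE (red circles) for 8 genes at the 6 co-culture times, spaced evenly and not to scale, and the difference between aSyn-treated and untreated cells kept apart (black square). Adgre5 and Slc13a3 stay at or above 2.83 at every time, Klf2 goes from 2.29 at 60 min to -0.32 at 300 min, and Tcim, Lima1 and Txnip are highest at 60 min.

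Cells given aSyn but never mixed with acceptors allowed a second comparison: whether donors differed from acceptors as aSyn-treated cells differ from untreated ones. The latter contrast called 2524 genes (19.2%), and 515 of the 882 were among them, 58.39% of the 882 and 20.4% of the 2524, with the same direction in 512. The test of the difference between the contrasts called 48 genes (0.364%), 20 higher and 28 lower at 60 min. Txnip, which encodes an inhibitor of thioredoxin that responds to glucose, was higher in donors than acceptors (0.87, SE 0.19) and lower in aSyn-treated than untreated cells (-0.91, SE 0.18), a difference of 1.78 (SE 0.27, adjusted p 0.000297). Its level at 60 min was 222, 117 and 140 CPM in donors and 144, 174, 50.0 and 61.6 CPM in acceptors, and untreated cells were at 212 ± 75.3 CPM (SD, n = 4). Lima1, an actin-bundling protein gene, was at 202, 87.5 and 67.9 CPM in donors and 32.1 to 64.9 CPM in acceptors (1.38, SE 0.19), while aSyn-treated cells differed from untreated ones by -0.35 (SE 0.17), a difference of 1.73 (SE 0.26, adjusted p 0.000297).

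The autophagy genes among the 48 moved the other way. Sqstm1 differed by 0.70 between donors and acceptors and by 1.82 between aSyn-treated and untreated cells (difference -1.12, SE 0.24, adjusted p 0.0241). Its level was 2012 ± 621 CPM (SD, n = 3) in donors and 2015 ± 482 CPM (SD, n = 4) after aSyn alone. It was 1199 ± 323 CPM (SD, n = 4) in acceptors against 548 ± 103 CPM (SD, n = 4) in untreated cells. The means of donors and aSyn-treated cells were close to each other, and the mean of acceptors lay above that of untreated cells. Atg12 differed by -0.37 and by 0.47 in the 2 contrasts (difference -0.83, SE 0.15, adjusted p 0.00547), Gabarapl1 by -0.59 and 0.28 (-0.87) and the cargo receptor gene Tax1bp1 by -0.11 and 0.55 (-0.66). Cxcr4 (-1.42, SE 0.32, adjusted p 0.0304) and the nuclear receptor gene Nr4a2, which guides dopaminergic neurons and dampens inflammation (-3.97, SE 0.91, adjusted p 0.034), were called as well. Nr4a2 was at 2.61, 9.68 and 13.1 CPM in donors and 3.40, 0.973, 19.6 and 90.1 CPM in acceptors at 60 min. None of the 48 was called without the block (461 at an unadjusted p under 0.05, 3.5% of genes tested), and Txnip alone was called when only these 4 groups were fitted.

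**Figure D5:**
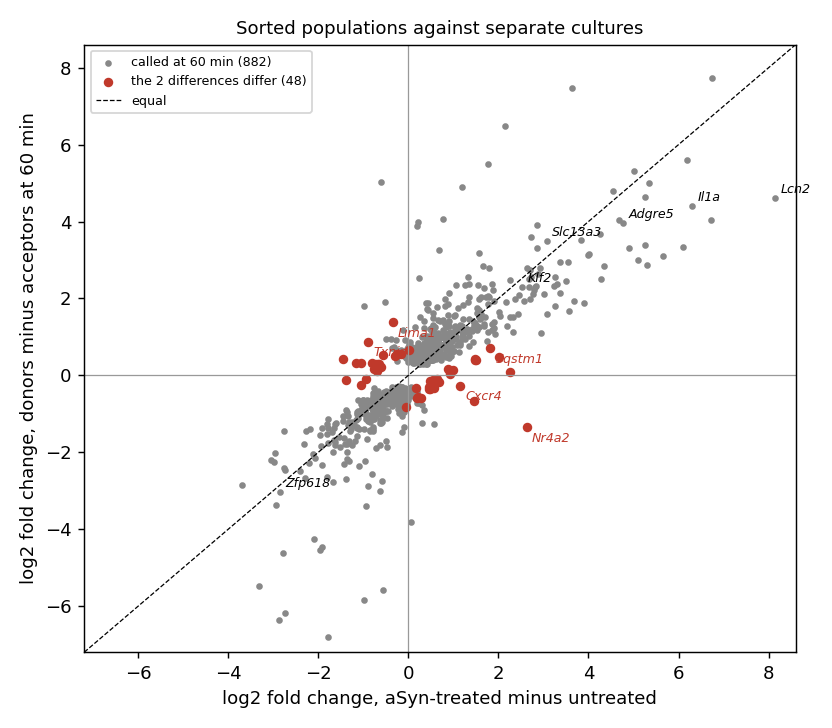
Log2 difference between donors and acceptors at 60 min against that between aSyn-treated and untreated cells kept apart, for the 882 genes called at 60 min (grey) and the 48 genes whose 2 differences differed (red); the dashed line marks equal differences. Adgre5 lies near the line at 4.77 and 3.95, while Nr4a2 and Cxcr4 lie below it, at 2.62 and -1.35 and at 1.15 and -0.27.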

How the data were processed

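Counts per gene of 3′ mRNA libraries (QuantSeq FWD, single reads) were taken as deposited by the authors; the submitters' processing notes name STAR, Partek, DESeq2 and the build mm10, and counting and strand settings are not given in the sources used here. The deposited counts are whole numbers for 16632 genes in 54 libraries, with totals of 7807389 to 15537493, and 11 septin symbols had turned into dates. Groups and replicate numbers came from the titles. Untreated libraries with the same number were summed, which gave 52 units in 14 groups. Genes passing edgeR's low-count filter (minimum count 10) were fitted with edgeR 4.0.16 (R 4.3.3, TMM, quasi-likelihood F test), with group and replicate number as terms, and p-values were Benjamini-Hochberg adjusted over 13169 genes at 0.05. The replicate number was kept as a block because same-numbered donor and acceptor libraries deviated together from their group means (r = 0.31, 0.392 and 0.352 over genes; differently numbered ones -0.282 to 0.27). That donors 1 and acceptors 2 also gave 0.27 limits this check. The labels do not say that experiments were separate cultures of separate animals, so p-values measure the spread between these samples. That spread is what remained over all 14 groups after the terms for group and replicate number. The fit held no term for how the donor-acceptor difference varied between the 3 pairs.

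Levels are CPM, counts scaled to TMM-adjusted library sizes, and values are means ± SD. SE is that of the fitted log2 difference. Where a group had at most 3 counts in each library, the fold is a bound against 3 counts. Differences between contrasts were tested in the same fit. On simulated data for 13032 genes with the replicate structure of the 60 min comparison, 24, 50, 80 and 86% of genes changed 1.5-, 2-, 4- and 8-fold were recovered (50 genes each), with 3 false calls. Named genes were the 12 largest rises and the 12 largest falls among called genes that moved the same way in all 3 pairs and had a mean of at least 5 CPM in the higher group, up to 4 members of each list with the smallest p, and up to 3 called genes per direction for each difference between contrasts; the other called members of lists were named after their values were seen. Members and lists were chosen with earlier results of these data known. Alternatives were DESeq2 1.42.0, other size factors and filters, no block, only the groups compared, untreated libraries kept apart, and leaving out each experiment. Coordinates are GENCODE M21 (mm10) and promoters RefSeq (GRCm38.p6). Results for some items are not reported here.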

Additional observations from a re-analysis of the deposited data

Results flagged for a closer look

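Adgre5 had one acceptor library away from the rest: experiment 3 was at 8.64 CPM and the other acceptors at 4.46 to 5.0 CPM, a gap of 0.83 of the group's range on the log2 scale. Chance alone flags about 1 in 20 groups by this criterion.

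The donor-acceptor difference at 60 min differed from that at 300 min for Tcim by 2.62 and for Klf2 by 2.61 (log2). It differed from the contrast of aSyn-treated with untreated cells for Txnip by 1.78, for Lima1 by 1.73, for the splicing-associated gene Luc7l3 by 0.95, for Oga, which removes O-GlcNAc from proteins, by -0.88, for Atg12 by -0.83 and for the ubiquitin ligase gene Rnf149 by -1.04.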

How the results depend on the processing

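The count of 882 genes fell to 55 without the replicate block and to 3 when only the 7 libraries were fitted, and leaving out each experiment gave 332 to 588 genes. It stayed within 1.5 times with other size factors, no or a stricter filter, untreated libraries kept apart, or DESeq2, which called 588 higher and 548 lower. Against 0 min DESeq2 called 1 gene. Against 300 min 0 genes were called without the block, 0 with only the groups compared, 0 with untreated libraries kept apart, and 0 to 2 when an experiment was left out. Against aSyn-treated cells 0 genes were called without the block, 1 with only the groups compared, 78 with untreated libraries kept apart, 94 with DESeq2, and 3 to 68 when an experiment was left out. The cause of these differences was not tested. Of the 86 called named genes none changed direction in any fit that tested it; 32 kept the call whichever experiment was left out and 74 lost it without the block. With 3 donor libraries and changes simulated as equal in every experiment, 24% of 1.5-fold changes were recovered, so such changes were mostly not detectable.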

Other observations

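The mean of acceptors lay above that of untreated cells for 3 genes chosen after their values were seen, a relation that the contrast within the co-culture does not show. These are levels with no test. Klf4, a transcription factor induced by many stimuli, was at 48.1 ± 16.3 CPM (SD, n = 3) in donors and 22.4 ± 10.4 CPM (SD, n = 4) in acceptors at 60 min, and at 5.45 ± 3.05 CPM (SD, n = 4) in untreated cells. Rnf149 was at 1693 ± 365, 1182 ± 365 and 576 ± 96.6 CPM in the same 3 groups. The inhibitor of differentiation gene Id3 was at 19.2 ± 8.79 CPM in donors and 51.6 ± 30.5 CPM in acceptors, against 10.2 ± 8.94 CPM in untreated cells. Rsad2 was at 842 ± 1248 CPM in untreated cells, a spread wider than its difference between donors and acceptors.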
